A study of Homo sapiens with 11 samples.

Results

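ERVL elements are the repeats of the human genome left by an old family of endogenous retroviruses, and here they were taken as every annotated repeat whose class is given as ERVL, with the related MaLR repeats kept apart. This gave 168561 elements of 5622516 annotated repeat elements (2.998%) in 119 subfamilies. An intact provirus has an internal part with the viral genes and a long terminal repeat (LTR), which holds its promoter, at each end. Most copies in the genome have since been reduced to a solitary LTR. By their names, 34069 elements were MLT2 LTRs, in 12 subfamilies, 103768 were other LTRs, in 88 subfamilies, and 30724 were internal parts, in 19 subfamilies. MLT2A LTRs flank the internal part named HERVL-int, and this pair is known for its transcription in the early human embryo at genome activation. Many LTRs are kept silent by DNA methylation, and LTR copies in opposite orientations, or copies transcribed from both strands, can give double-stranded RNA.

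RNA was recovered from HCT116, an established colorectal cancer cell line, with J2, a monoclonal antibody to double-stranded RNA, per the sample labels. The text on extraction, which is shared by all samples, instead names an antibody to Staufen1, an RNA-binding protein that binds double-stranded RNA, so what was enriched rests on the labels. The 3 J2 libraries were 1 of cells with an siRNA to luciferase (siLuc, the control siRNA) and DMSO, the solvent; 1 of siLuc cells with decitabine (DAC); and 1 of cells with an siRNA to Staufen1 (siStau1) and DAC. Decitabine is a nucleoside analogue that inhibits DNA methylation, and the labels give 500 nM for 5 days. The 11 samples include no J2 library of siStau1 cells in DMSO, so the effect of the knockdown on J2 RNA without the drug is not covered. Each J2 group is 1 library, so no difference between conditions has a replicate check and no test was made; intervals are 95% intervals that cover counting error only. Total RNA was measured in the 4 combinations of siRNA and treatment, with 2 libraries each.

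Below, the J2 libraries are called DMSO, DAC and siStau1 (whose cells also had decitabine), and where 3 values follow each other unnamed they stand in this order. They held 71473124, 68944777 and 83037330 reads on repeats. In total RNA, STAU1 itself was at 35.5 FPKM (fragments per length of transcript and per depth) with siLuc and DMSO, 33.7 with siLuc and DAC, 30.0 with siStau1 and DMSO and 27.1 with siStau1 and DAC in the authors' deposited table. Its q-value there was 0.767 for the knockdown in DMSO and 0.685 in DAC, so the knockdown was not seen as a called change in that table, and siStau1 below means the library with that label. Of 7 epithelial markers, 5 (EPCAM, CDH1, KRT8, KRT18 and KRT19) were at 14.3 FPKM or more in all 4 groups, while CDX1 and VIL1 stayed under 1 FPKM. Of 4 markers of blood, endothelium and fibroblasts, 3 stayed under 1 FPKM, and COL1A1 lay between 0.826 and 8.60 FPKM.

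ERVL elements held a larger share of the J2 reads in both libraries of decitabine-treated cells than in the DMSO library. They had 709108 reads in the DMSO library, 0.992% of the reads on repeats (Wilson interval 0.990 to 0.994%). The DAC library had 921903, or 1.34% (1.33 to 1.34%), and the siStau1 library 1125329, or 1.36% (1.35 to 1.36%). With the libraries scaled to their reads on repeats, the log2 ratio of summed ERVL reads was 0.43 for DAC over DMSO, 0.02 for siStau1 over DAC and 0.45 for siStau1 over DMSO. The 3 comparisons share libraries and are set side by side, not counted as support for each other. In the same order, the related MaLR repeats stood at 0.31, 0.05 and 0.37, ERV1 at 0.20, 0.17 and 0.37, and ERVK at 0.27, -0.13 and 0.14. ERVL thus had the highest of these 4 values for DAC over DMSO. In bulk RNA such as this, more cells with a transcript and more of it per cell cannot be told apart.

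The direction depends on what the libraries are scaled to. Another scaling moves every repeat by the same amount: for DAC over DMSO by 0.89 with the authors' own factors, by -0.32 with totals outside Alu elements, and by -0.47 with totals outside Alu elements and the small structured RNA classes. ERVL was then at 1.32, 0.11 and -0.04, so over the last base its share was slightly lower with DAC, at 4.50% against 4.63% in DMSO. Over DMSO, siStau1 had values of 1.02, 0.34 and 0.10, all above 0. The siStau1 over DAC values were -0.30, 0.23 and 0.14, so that direction turned with the authors' factors. The corresponding shifts were -0.32, 0.21 and 0.12 for siStau1 over DAC and 0.57, -0.11 and -0.35 for siStau1 over DMSO. A DAC over DMSO value below that lies between 0 and 0.47 is therefore below 0 over the last base. That takes in MLT2A2, MLT2B3, LTR33 and HERVL-int. Every negative subfamily value for DAC over DMSO is above 0 with the authors' factors, while the single LTR67B element described below, at -1.16, stays below 0. For siStau1 over DAC these factors shift every value by -0.32, so negative values there stay below 0. Values below are scaled to all reads on repeats unless said otherwise, and the order of subfamilies within a comparison does not depend on the scaling.

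**Figure D1:**
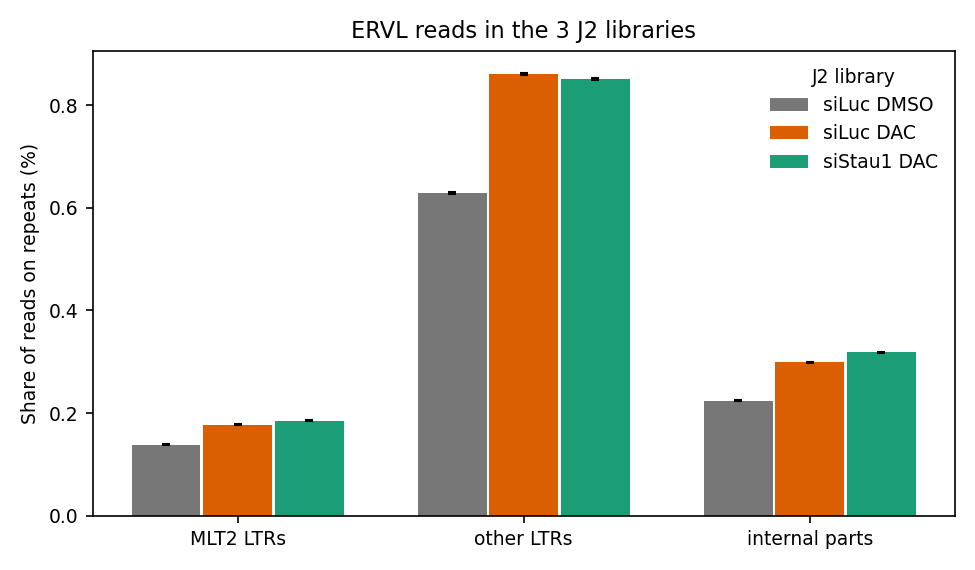
Share of the reads on repeats (%, y axis) held by MLT2 LTRs, other LTRs and internal parts of ERVL in the 3 J2 libraries; error bars are Wilson 95% intervals for counting error, and each bar is 1 library. All 3 groups sit higher in DAC and in siStau1 than in DMSO, and the other LTRs hold the most, 0.630% in DMSO and 0.861% in DAC.

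MLT2 LTRs, other LTRs and internal parts differed between libraries by similar amounts. MLT2 LTRs made up 20.2% of ERVL elements and held 13.9, 13.3 and 13.7% of ERVL reads. Internal parts made up 18.2% of the elements and held 22.6, 22.4 and 23.5% of the reads. Other LTRs made up 61.6% and held 63.5, 64.4 and 62.8%. MLT2 LTRs therefore held fewer reads than their number of elements in all 3 libraries and internal parts more; element lengths are not in the files, so these are not levels per length. For DAC over DMSO the log2 ratio of summed reads was 0.36 for MLT2 LTRs, 0.45 for other LTRs and 0.41 for internal parts. It was 0.06, -0.02 and 0.09 for siStau1 over DAC. MLT2 LTRs minus other LTRs came to -0.09, 0.08 and -0.01 over the 3 comparisons, a difference that no scaling can change.

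At this scaling nearly all ERVL subfamilies were higher in the DAC library than in the DMSO library, and so were most subfamilies of other repeats. Of the 115 ERVL subfamilies with at least 200 reads in both libraries together, 110 were higher (95.7%), against 87.2% of subfamilies of all repeats. They were 11 of 12 MLT2 subfamilies, 82 of 84 other LTRs and 17 of 19 internal parts. Above 2-fold, only 7 of the 115 were higher, against 31.7% of the subfamilies of all repeats, so most ERVL subfamilies that were higher were so by less than 2-fold. With totals outside Alu elements and RNA classes, 61 of the 115 were higher.

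Between siStau1 and DAC the subfamilies were more evenly split, with 49 of 115 higher in siStau1 (42.6%), against 29.9% of all repeat subfamilies, and none was beyond 2-fold. With the authors' factors 8 were higher, with totals outside Alu 99, and with totals outside Alu and RNA classes 83. For siStau1 over DMSO, 114 of 115 were higher, against 90.6%, and 6 were above 2-fold, against 7.16%. MER74C, an LTR, was the exception there, with 589, 605 and 654 reads. Its log2 ratio was -0.07, with an interval that includes 0 (-0.23 to 0.10), and 0.09 without its most-read element.

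**Figure D2:**
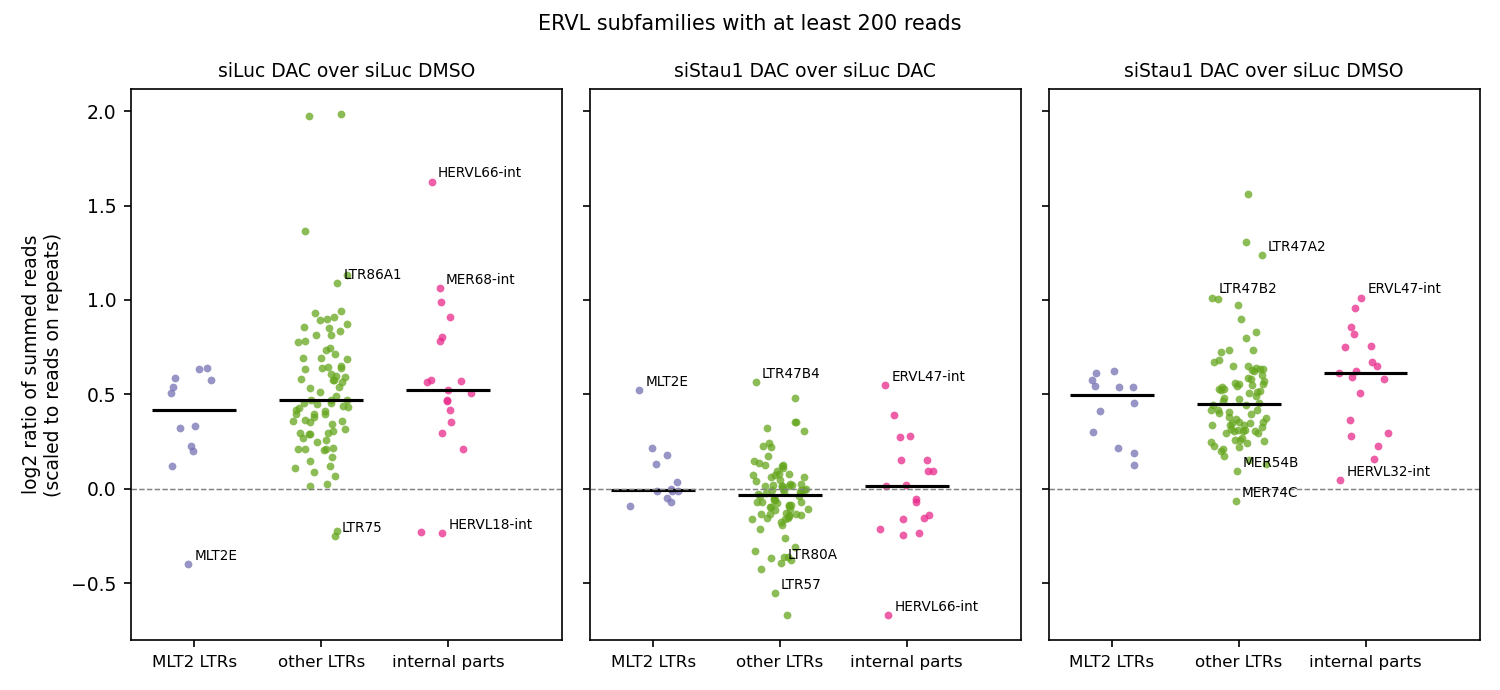
Log2 ratio of summed reads, scaled to reads on repeats (y axis), for each ERVL subfamily with at least 200 reads in the libraries compared, by group (x axis) and comparison (panels); each point is a subfamily, black lines are medians over subfamilies, and the subfamilies labelled are the highest and lowest with at least 1000 reads. Medians lie at 0.42 to 0.52 for DAC over DMSO and near 0 for siStau1 over DAC.

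Among MLT2 LTRs the subfamilies differed between libraries by unequal amounts. Their letters name branches of the family, of which MLT2A is the one paired with HERVL-int. MLT2B3 had the most reads, 21087 in DMSO, 22082 in DAC and 30138 in siStau1. Its log2 ratio for DAC over DMSO was 0.12 (0.09 to 0.15). MLT2B1 had 9369, 13479 and 16658 reads and a ratio of 0.58 (0.54 to 0.61), so these 2 branches of MLT2B differed by more than their counting error.

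MLT2A1 had 9043, 12391 and 13995 reads and a log2 ratio of 0.51 (0.47 to 0.55) for DAC over DMSO. MLT2A2 had 16782, 20227 and 26698 reads and a ratio of 0.32 (0.29 to 0.35). Both MLT2A subfamilies were thus higher in both treated libraries, but so were MLT2B2 (0.63), MLT2C1 (0.59), MLT2C2 (0.64), MLT2D (0.54), MLT2F (0.33), MLT2B5 (0.20) and MLT2B4 (0.23). MLT2B4 had 15092, 17049 and 20377 reads; without its most-read element its ratio was 0.36. The MLT2A values lay within the range of the other MLT2 LTRs.

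MLT2E was the only MLT2 subfamily that was lower in DAC. It is a small one of 405 elements, with 1369, 1001 and 1733 reads. Its log2 ratio was -0.40 (-0.52 to -0.28) for DAC over DMSO and 0.12 (0.02 to 0.23) for siStau1 over DMSO. It was low in the DAC library alone, and it stayed so without its most-read element, at -0.36. With the authors' factors MLT2E too was higher in DAC, at 0.49.

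**Figure D3:**
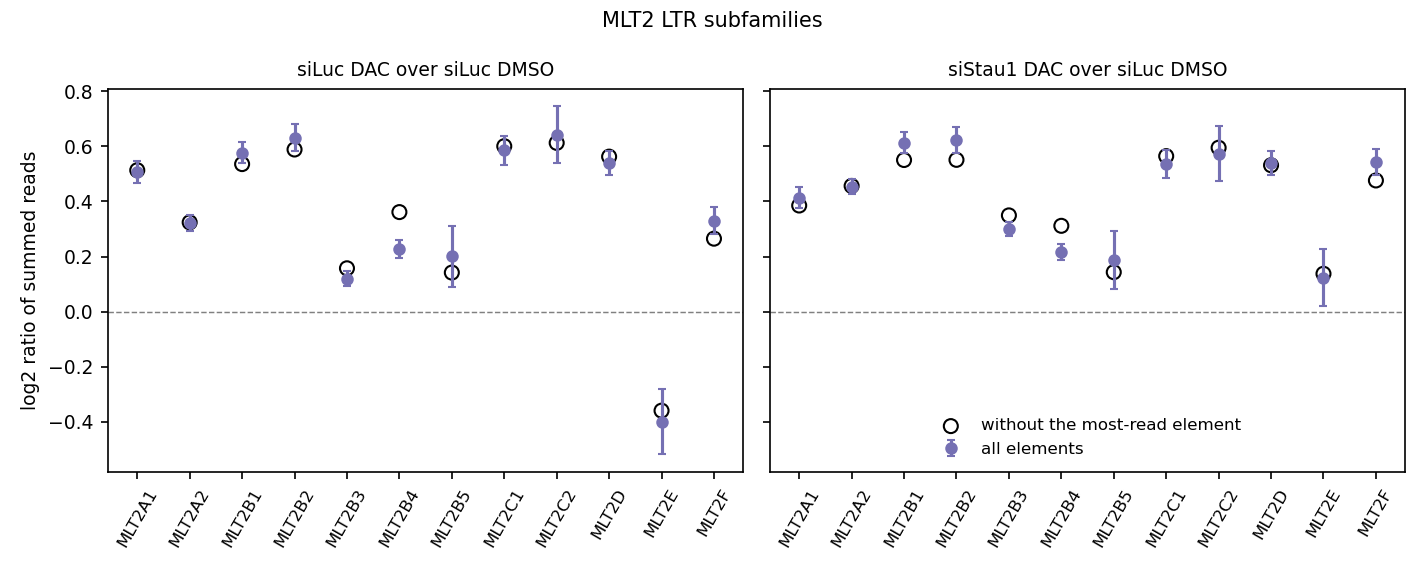
Log2 ratio of summed reads, scaled to reads on repeats (y axis), for the 12 MLT2 subfamilies (x axis) in both treated libraries over DMSO (panels); filled points are all elements with 95% intervals for counting error, open circles leave out the element with the most reads. MLT2E lies at -0.40 in DAC and at 0.12 in siStau1, and the other subfamilies lie above 0 in both at this scaling.

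The other LTRs with the most reads were MER21C, LTR33, MER21B and MER21A. MER21C had 42679, 64630 and 77913 reads, and MER21B had 23004, 38125 and 42631. Their log2 ratios for DAC over DMSO were 0.65 (0.63 to 0.67) and 0.78 (0.76 to 0.80), and without their most-read elements 0.69 and 0.78. MER21A stood at 0.45 and LTR33, with 40520, 47925 and 58331 reads, at 0.29. The MER21 LTRs thus lay at or above the value of all other LTRs together, and LTR33 below it.

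LTR86A1 had the highest ratio of LTRs with at least 1000 reads for DAC over DMSO. It had 1187, 2440 and 2280 reads, a ratio of 1.09 (0.99 to 1.19). LTR80B and LTR108a_Mam, chosen here after their values were seen, were higher still but with few reads. LTR80B had 99, 378 and 339 reads and LTR108a_Mam had 71, 269 and 204, with ratios of 1.98 (1.66 to 2.32) and 1.97 (1.59 to 2.37). LTR80A, with 242, 602 and 552 reads, stood at 1.37 in DAC over DMSO and at -0.39 in siStau1 over DAC. These small LTR subfamilies were higher in both treated libraries than in DMSO. So were most ERVL subfamilies, 110 of 115 in DAC and 114 of 115 in siStau1, so that direction is not particular to them. For LTR80B and LTR108a_Mam the direction in DAC also follows from how they were chosen.

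LTR75 went the other way in DAC, with 2609, 2114 and 3548 reads. Its log2 ratio for DAC over DMSO was -0.25 (-0.33 to -0.17), and -0.10 without its most-read element. MER54B had 5389, 5257 and 6683 reads and hardly differed, with 0.02 in DAC and 0.09 in siStau1 over DMSO.

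LTR47A2 and LTR47B2 had the highest siStau1 over DMSO ratios among subfamilies with at least 1000 reads. LTR47A2 had 338, 622 and 925 reads, and LTR47B2 had 470, 843 and 1102. Their log2 ratios for siStau1 over DMSO were 1.24 (1.05 to 1.42) and 1.01 (0.86 to 1.17). ERVL47-int, an internal part whose name carries the same number, had 354, 471 and 830 reads and a ratio of 1.01 (0.83 to 1.20). LTR47B4 stood at 0.57 for siStau1 over DAC (391, 424 and 756 reads), but at 0.02 without its most-read element, so that value rests on 1 copy. ERVL47-int stood at 0.55 there, and at 0.35 without its most-read element. The LTR47 subfamilies did not share a direction between siStau1 and DAC. LTR47A, the one with the most reads (1612, 2991 and 2911), stood at -0.31 (-0.38 to -0.23), LTR47A2 at 0.30 and LTR47B2 at 0.12, with -0.15 without its most-read element. With the authors' factors LTR47A2 and LTR47B2 were at -0.02 and -0.20.

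LTR57 was among the lowest for siStau1 over DAC, with 2117, 3589 and 2945 reads. Its ratio of -0.55 became -0.21 without its most-read element.

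Among internal parts, HERVL-int stood out by its number of reads. Its 2403 elements are 1.43% of ERVL and held 7.35, 6.32 and 6.92% of ERVL reads, or 52152, 58226 and 77873 reads. At least 1 read fell on 32.4, 25.3 and 34.5% of HERVL-int elements. The HERVL-int log2 ratio for DAC over DMSO was 0.21 (0.19 to 0.23), and 0.09 without the most-read element. HERVL-int was therefore below the other large internal parts: ERVL-E-int stood at 0.52 (25372, 35110 and 45118 reads), ERVL-B4-int at 0.58 (19952, 28714 and 36926) and ERV3-16A3_I-int at 0.36 (25163, 31052 and 41538).

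HERVL66-int had the highest log2 ratio among subfamilies with at least 1000 reads, 1.63 (1.48 to 1.77), and the lowest for siStau1 over DAC, -0.67 (-0.78 to -0.56). It had 513, 1529 and 1158 reads. A single element held 73.1% of its reads in DMSO and 67.3% in DAC, and without it the ratios were 1.91 and -0.72. MER68-int, with 1400, 2820 and 2870 reads, stood at 1.06 for DAC over DMSO.

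HERVL18-int was low in DAC, with 9060, 7436 and 11732 reads. Its ratio was -0.23 (-0.28 to -0.19) for DAC over DMSO and 0.16 (0.12 to 0.20) for siStau1 over DMSO. HERVL32-int had 1049, 864 and 1259 reads and likewise a ratio of -0.23 in DAC, but -0.58 without its most-read element. Its value for siStau1 over DMSO, 0.05, was -0.01 without its most-read element.

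Internal parts and the LTRs whose names share their number were compared for DAC over DMSO. HERVL40-int, with 6442, 11665 and 13555 reads, stood at 0.91, and its LTRs LTR40A1, LTR40b, LTR40a and LTR40c at 0.84, 0.82, 0.75 and 0.54. LTR66 stood at 0.85 beside HERVL66-int at 1.63. HERVL74-int stood at 0.57, with MER74B at 0.61, MER74A at 0.41 and MER74C at 0.09. In these 3 sets the internal part and its LTRs all lay above 0 at this scaling. So did 110 of the 115 ERVL subfamilies with at least 200 reads, so nothing is read from the shared direction. Outside Alu and RNA classes MER74A and MER74C were below 0 and HERVL74-int and MER74B above.

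LTR18A, LTR18B and LTR18C, at 0.21, 0.12 and 0.32, lay above 0 while HERVL18-int lay at -0.23; without its most-read element LTR18B stood at -0.02. LTR32, with 7238, 8082 and 10639 reads, likewise lay above 0, at 0.21 (0.17 to 0.26), while HERVL32-int lay at -0.23. With the number 16, HERV16-int stood at 0.41 and ERV3-16A3_I-int at 0.36, and the LTR16 subfamilies lay between 0.11 (LTR16D2) and 0.51 (LTR16D). ERV3-16A3_LTR, which shares its full name with ERV3-16A3_I-int, stood below it at 0.25 (0.19 to 0.30). HERVL-int, at 0.21, lay below both of its MLT2A LTRs. In the further sets by shared number, MER70-int stood at 0.78 above MER70A, MER70B and MER70C at 0.22, 0.36 and 0.20, and MER76-int at 0.47 above MER76 at 0.21. LTR53-int, at 0.99, lay above LTR53 at 0.29 and LTR53B at 0.39. MER68-int, at 1.06, lay above MER68 at 0.69 and MER68B at 0.64 but not above MER68C at 1.13. LTR52-int and LTR57-int, at 0.30 and 0.51, lay below LTR52 at 0.57 and LTR57 at 0.81; without their most-read elements LTR57-int stood at 1.04 and LTR57 at 0.41, the reverse order. An LTR and its internal part thus did not always give the same value, nor did either always stand higher.

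Row order in the deposited tables offered a view of neighbouring copies, looked at after the values above were known; what the order means is not stated. Of HERVL-int rows, 53.1% had an MLT2A row next to them, against 0.251% of all rows. Counted from the LTRs, 18.5% of MLT2A rows and 0.675% of MLT2B rows were next to HERVL-int, against 0.0762% of all rows. The 1277 HERVL-int elements beside an MLT2A row had 34458, 41482 and 52103 reads. The other 1126 had 17694, 16744 and 25770. The first set stood at 0.32 (0.30 to 0.34) and the second at -0.03 (-0.06 to 0.0029) for DAC over DMSO. Without the most-read HERVL-int element the first stood at 0.16. Over DMSO, siStau1 gave 0.38 and 0.33, so the sets lay closer in that library. Split the same way, the LTRs had the opposite order for DAC over DMSO. MLT2A elements beside HERVL-int stood at 0.31 (0.25 to 0.37) and the other MLT2A elements at 0.40 (0.38 to 0.43).

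At the level of single elements, most ERVL copies had no read in any one library. At least 1 read fell on 32425 (19.2%), 30684 (18.2%) and 38145 (22.6%) of the ERVL elements, against 23.6, 24.8 and 26.0% of all repeats. The DAC library thus detected fewer ERVL elements than DMSO and had more reads on them, 30.0 per detected element against 21.9. All LTR elements showed the same: 19.1% were detected in DAC against 19.7% in DMSO, with 31.2 reads per detected element against 25.3. Of elements with at least 20 reads, 5385 had them in all 3 libraries, which is 77.8% of the 6918 in DMSO, 61.3% of the 8788 in DAC and 53.2% of the 10120 in siStau1. The same shares were 75.2, 59.9 and 51.8% over all LTR elements and 75.1, 72.4 and 65.1% over all repeats, so ERVL lay near the other LTR elements.

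Ratios of single elements were taken where both libraries together had at least 20 reads, which 7.53% of ERVL elements passed for DAC over DMSO; the rest have too few reads for a ratio. For DAC over DMSO, the median over 12696 ERVL elements was 0.61, and 0.01 over all repeats. Of the ERVL elements 36.5% were above 2-fold higher and 10.7% above 2-fold lower, against 21.3% and 17.0% of all repeats. The medians were 0.61 for MLT2 LTRs, 0.62 for other LTRs and 0.55 for internal parts. MaLR repeats, at 0.55, and ERV1, at 0.54, lay close to ERVL, so the distance from all repeats is shared with the other LTR classes.

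Single ERVL elements were split about evenly between siStau1 and DAC: the median over 14555 elements was -0.06, and 0.03 over all repeats, with 16.9% above 2-fold higher and 16.4% above 2-fold lower, against 15.5% and 14.8% of all repeats. That is close to the background in both directions. For siStau1 over DMSO the median over 13701 elements was 0.49, and 0.04 over all repeats, with 28.5% above 2-fold higher and 4.78% above 2-fold lower, against 14.5% and 8.27%. All LTR elements lay close to ERVL here too, with a median of 0.45, 27.7% above 2-fold higher and 4.85% above 2-fold lower.

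ERVL reads were not held by 10 copies, but they were held by a small part of the elements. The 10 elements with the most reads held 4.18, 3.11 and 3.70% of ERVL reads. The top 100 held 14.7, 13.0 and 13.4%, and the top 1000 held 42.5, 41.2 and 40.5%. It took 1527, 1603 and 1695 of the 168561 elements to reach 50% of the reads.

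The 5 elements with the most reads did not share a direction. An LTR33 element had 3732, 2890 and 7634 reads. An LTR67B element had 4164, 1799 and 5721. Both were lowest in DAC and highest in siStau1, with log2 ratios of 1.13 (1.07 to 1.20) and 1.40 (1.32 to 1.48) for siStau1 over DAC.

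A HERVL-int element went the opposite way, with 2126, 6718 and 3737 reads, a ratio of 1.71 (1.64 to 1.78) for DAC over DMSO and -1.11 for siStau1 over DAC. Both rows next to it were MLT2A1 elements, which had 90, 242 and 185 reads and 40, 388 and 158 reads. All 3 neighbouring rows were thus highest in DAC. An LTR86A2 element had 4830, 3108 and 5545 reads, and an MLT2B3 element 2978, 2602 and 3334, the smallest spread of the 5. Both of these were likewise lowest in DAC. For DAC over DMSO the LTR33, LTR67B, LTR86A2 and MLT2B3 elements stood at -0.32, -1.16, -0.58 and -0.14. All of these lay below 0 at this scaling, while ERVL as a whole stood at 0.43.

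Reads on one ERVL element often went with reads on its neighbour, as they did for repeats in general. Of ERVL elements with at least 20 reads over the libraries together, 64.5% had a row directly before or after them that also had at least 20. For ERVL elements under 20 reads the share was 6.77%. Over all repeats these shares were higher, 70.3% and 12.4%. A row directly before or after was an Alu element with at least 20 reads for 28.8% and 3.28% of ERVL elements, and for 40.4% and 7.74% of all repeats. Where such transcripts begin was not tested.

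The DAC library stood apart in one respect. There were 6380 ERVL elements that both the DMSO and the siStau1 library covered by 20 reads or more, and 304 of them (4.76%) had no read in DAC. That was more than the 2.15% of all repeats, and less than the 5.34% of all LTR elements, with MaLR at 5.18% and ERV1 at 6.92%. The shares were 7.37% of MLT2 LTRs (66 of 896), 3.90% of other LTRs (164 of 4208) and 5.80% of internal parts (74 of 1276). Counted the same way, 35 of 7294 (0.480%) were without a read in DMSO, against 0.202% of all repeats and 0.375% of all LTR elements, and 0 of 5583 in siStau1.

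At 100 reads or more in both other libraries, 28 of 1238 ERVL elements (2.26%) were unread in DAC, against 0.681% of all repeats and 2.57% of all LTR elements, with 0 of 1582 in DMSO and 0 of 1065 in siStau1 for ERVL. An MLT2A2 element had 392, 0 and 720 reads. A HERVL-int element had 382, 0 and 513, and an LTR16A element 404, 0 and 380. A count of 0 allows up to 3 reads, far below the other libraries. In DMSO the elements of this kind had fewer reads, such as a MER21C element with 0, 55 and 45. Without all such elements ERVL stood at 0.46 for DAC over DMSO and at -0.01 for siStau1 over DAC, and MLT2B3 moved from 0.12 to 0.23. Most of the elements left out were chosen for having no read in DAC. The direction of these moves therefore follows from that choice, and nothing is read from it. What the absence of reads on such elements reflects was not tested.

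Ratios were also taken by the reads that an element had in the library outside the comparison, which the comparison itself does not use. For DAC over DMSO, ERVL lay between 0.25, for elements with 0 reads in siStau1, and 0.54, for those with 11 to 50 reads there. Over all repeats the same ratio went from 0.73 at 0 reads to -0.07 at 51 to 200. ERVL was thus below all repeats among elements with 0 reads and above them from 3 to 10 reads upward. For siStau1 over DMSO, ERVL lay between 0.40 and 0.48 at all read levels.

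**Figure D4:**
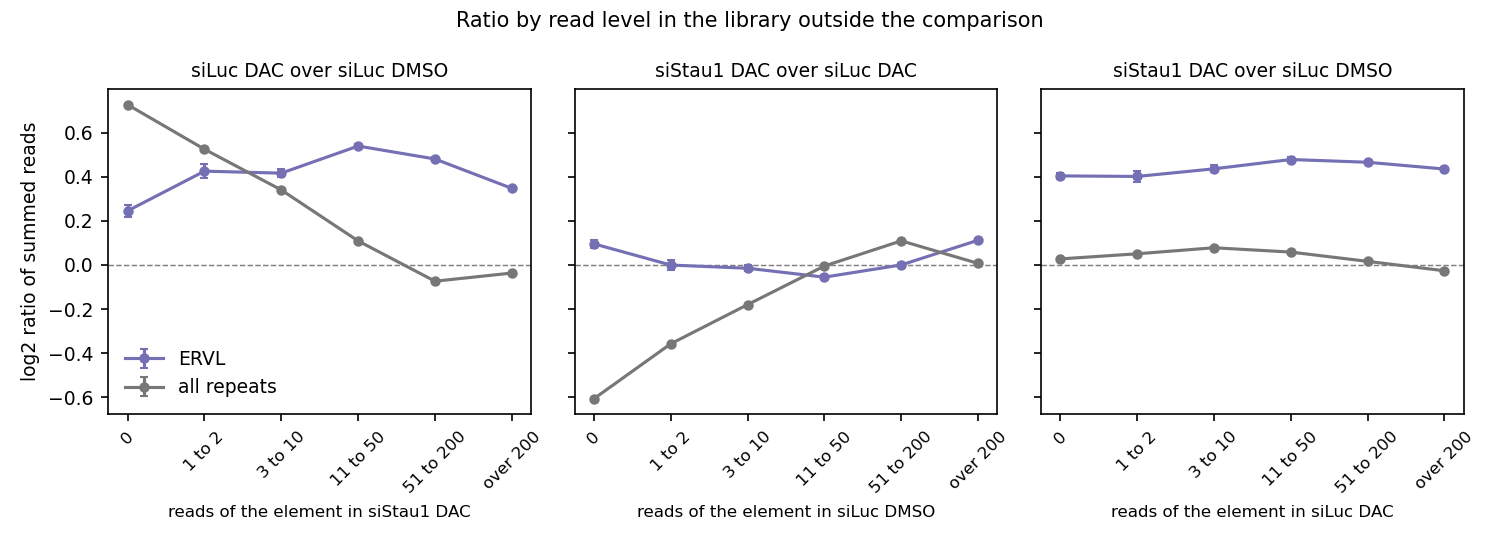
Log2 ratio of summed reads, scaled to reads on repeats (y axis), by the reads of an element in the J2 library outside the comparison (x axis), for ERVL and for all repeats; panels are the 3 comparisons and error bars are 95% intervals for counting error. For DAC over DMSO, ERVL stays between 0.25 and 0.54 while all repeats go from 0.73 down to -0.07.

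Genes of the early embryo that are known to be transcribed at the same stage as HERVL and MLT2A were read from total RNA. The list of 15 holds DUX4, the homeobox activator of HERVL, and genes such as ZSCAN4, TRIM43 and MBD3L2 that it activates. In the authors' deposited table, 6 of the 15 were tested for decitabine against DMSO in each siRNA arm, and 5 were higher at a q-value under 0.05 in both. None was lower. Over all genes tested, 8.71% were higher and 4.78% lower in siLuc cells, and 4.56% higher and 2.89% lower in siStau1 cells, but all 5 were listed at 0 FPKM in both DMSO groups and entered the test only through the treated groups, so nothing is read from the count.

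ZSCAN4, a telomere-linked zinc finger gene, was listed at 0 FPKM in DMSO, and with decitabine at 0.670 in siLuc cells and 0.628 in siStau1 cells in the authors' deposited table. TRIM43 was at 2.53 and 2.55, MBD3L2 at 1.34 and 0.994, PRAMEF12 at 1.47 and 1.42, and CCNA1, a germ cell cyclin, at 0.807 and 0.609 in those treated groups. These are low levels, and TRIM43, MBD3L2 and PRAMEF12 have near-identical copies among which reads could be split. RFPL4B was at 4.13 FPKM in treated and 0 in untreated siLuc cells, with a q-value of 0.455. DUX4 was listed at 0.138 FPKM in treated siLuc cells and at 0 in the other groups, and was not tested. Between siStau1 and siLuc cells under decitabine, none of the 6 genes tested passed by the authors' q-value and none had an unadjusted p-value under 0.05, where 0.434% of all genes were higher and 0.469% lower.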

How the data were processed

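J2 values were read from the deposited repeat tables. The siLuc DMSO column holds the read count plus 1, and the other 2 columns hold the authors' scaled signal, from which whole reads were recovered as the value divided by the column's minimum, minus 1 (100% of values whole within 0.001). The column minima, 1, 1.92 and 1.27, served as the authors' factors; how they were made is not given in the sources used here. The submitters' processing notes name hg38, HISAT2 2.1.0, featureCounts, DESeq 1.36.0 and Cuffdiff 2.2.1, with no roles. In total RNA the deposited values are 1 FPKM per group of 2 libraries, with the authors' p-value, q-value and test statistic score, so their tests were used as deposited; separate cultures are not stated, so these may measure technical spread.

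Log2 ratios of summed reads were scaled to reads on repeats, with Clopper-Pearson intervals; shares have Wilson intervals. Ratios of single elements had 0.5 reads added. The scripts (Python 3.11.15, pandas 2.3.3, scipy 1.17.1) were tested on simulated data. Numbers of detected elements at 2, 4 and 6 reads (13784 in siLuc DMSO) outnumbered those at 1, 3 and 5 (4122), so both mates of a pair may be counted and intervals are then too narrow. Counting settings for reads that map to several copies are not given in the sources used here, and young or similar copies are uncertain.

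ERVL elements and lists were chosen with earlier results of these data known. Subfamilies are named where they have the most reads in a group (4 each), are the 3 highest or 3 lowest in a comparison with at least 1000 reads, are MLT2, or belong to the numbered sets 16, 18, 40, 66 and 74 and MLT2A with HERVL-int (the LTR32, LTR47A, LTR52, LTR53, LTR57, MER68, MER70 and MER76 sets were added after their values were seen); elements are the 5 with the most reads and the 3 with the most reads among those at 0 in 1 library. Alternatives were other scalings, minimum reads and added reads, and leaving out the most-read or unread elements.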

Additional observations from a re-analysis of the deposited data

How the results depend on the processing

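All J2 values rest on 1 library per group, and the lengths and positions of elements were not used. No paired analysis was possible because each J2 group is 1 library and the total RNA table gives 1 value per group; leaving out replicates and a replicate block were not run for the same reason. In what follows, comparisons stand in the order DAC over DMSO, siStau1 over DAC, and siStau1 over DMSO. The log2 ratio of summed ERVL reads was 1.32, -0.30 and 1.02 with the authors' factors, 0.11, 0.23 and 0.34 with totals outside Alu, and -0.039, 0.14 and 0.096 with totals outside Alu and RNA classes. Without the most-read element of each subfamily it was 0.45, 0.012 and 0.46. Without elements unread in 1 library it was 0.46 in the first and -0.0096 in the second. The median over elements was 1.497, -0.38 and 1.05 with the authors' factors, 0.29, 0.15 and 0.37 with totals outside Alu, and 0.14, 0.054 and 0.13 with totals outside Alu and RNA classes. With at least 100 reads it was 0.58, -0.085 and 0.44, with 5 reads added 0.53, -0.088 and 0.39, and without elements unread in 1 library 0.63 in the first and -0.088 in the second. MLT2 LTRs minus other LTRs came to -0.12 in the first without the most-read elements, and to -0.060 in the first and 0.058 in the second without the unread elements. Internal parts minus other LTRs came to -0.13, 0.17 and 0.038 without the most-read elements, and to -0.025 in the first without the unread ones. Higher subfamilies numbered 61 in the first with totals outside Alu and RNA classes, and in the second 8 with the authors' factors, 99 with totals outside Alu and 83 with totals outside Alu and RNA classes. As a share of reads outside Alu, ERVL held 2.33, 2.51 and 2.94% in the DMSO, DAC and siStau1 libraries, and outside Alu and RNA classes 4.63, 4.50 and 4.95%. The changes with scaling follow from the totals used. Without unread elements, the ERVL ratios and medians moved in a direction that follows from the choice, as most of those elements were unread in DAC. The cause of the others was not tested. The splits of HERVL-int and MLT2A by neighbouring rows were added after seeing the data.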
